A study of Mus musculus with 40 samples.

Results

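The comparison described here sets co-cultures of carcinoma cells and T cells on collagen IV against the same co-cultures on uncoated plastic. It holds 8 of the 40 libraries of the series, chosen by their labelled substrate and condition, with 4 libraries on collagen IV (experiments 2, 3, 4 and 5) and 4 on uncoated plastic (experiments 1, 2, 4 and 5). Experiments 2, 4 and 5 hold both substrates and give 3 within-experiment pairs. The carcinoma cells were 4T1, an established line from a mammary tumour of a BALB/c mouse, and the T cells came from the spleens of C57Bl6 mice, a strain with other major histocompatibility alleles. In the collagen IV group, tissue culture polystyrene was coated with collagen IV at 250 µg/ml before the 4T1 cells were seeded at 10000 per cm2, and T cells at 80000 per cm2 and interleukin 2 at 30 U/mL were added after a night of culture. In the described protocol, the uncoated group differed only in that the plastic had been incubated with buffer. In experiment 4, the sample description of the uncoated co-culture carries a suffix that the collagen IV one lacks. Its meaning is not stated, and it was not used in the fits. Wells of 4T1 alone, which serve as a second comparison, received interleukin 2 without T cells. After 24 h the floating cells and the trypsinised cells of a well were joined, so each co-culture library holds carcinoma and T cell RNA in 1 mixture. In such a mixture, fewer cells of a type and less RNA per cell cannot be told apart. The labels describe the 5 experiments as biological replicates, but do not say whether T cells of different experiments came from different mice.

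Collagen IV forms the sheet-like network of basement membranes, the thin matrix on which epithelia rest, and cells bind it mainly through the integrins alpha 1 beta 1 and alpha 2 beta 1. Laminin 332 is the other main adhesive protein of epithelial basement membranes. Lama3 and Lamb3 encode its alpha 3 and beta 3 chains. It is made by the epithelial cells themselves and is bound by the integrins alpha 3 beta 1 and alpha 6 beta 4. Stromelysins and gelatinases are secreted proteases that cleave basement membrane proteins.

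Promoter windows of 10 genes were searched for a pair of motifs, and the genes were chosen after their values were seen: Lamb3, Il18rap, Mmp3, Mmp10, Itga2, Efnb1, Serpine2, Tnc, Spp1 and Pmp22. Other genes, Lama3 and Nptx1 among them, were not searched. The windows shown are those with a match in genes that had lower values on collagen IV in every pair. The sequences are from RefSeq (GRCm38.p6), run 5′ to 3′ on the strand of the gene, and span 250 bases before to 50 bases after an annotated transcription start. Capitals mark a match to the AP-1 motif TGANTCA in the stromelysin genes, and to the TEAD motif CATTCC in Lamb3. Both motifs were searched on both strands, as TGANTCA and as CATTCC or GGAATG.
Mmp3 (chr9:7445572-7445871, plus strand): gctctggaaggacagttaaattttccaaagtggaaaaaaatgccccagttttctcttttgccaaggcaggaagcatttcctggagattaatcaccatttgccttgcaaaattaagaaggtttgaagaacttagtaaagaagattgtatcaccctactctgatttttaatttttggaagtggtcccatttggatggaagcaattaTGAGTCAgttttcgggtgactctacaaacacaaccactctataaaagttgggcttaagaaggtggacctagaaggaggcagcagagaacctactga
Mmp10 (chr9:7502092-7502391, plus strand): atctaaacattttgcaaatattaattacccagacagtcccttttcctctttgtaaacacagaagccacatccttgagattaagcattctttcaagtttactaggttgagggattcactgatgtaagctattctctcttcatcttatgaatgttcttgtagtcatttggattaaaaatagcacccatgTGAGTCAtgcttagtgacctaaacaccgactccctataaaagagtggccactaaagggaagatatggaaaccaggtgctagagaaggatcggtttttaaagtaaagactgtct
Lamb3 (chr1:193301993-193302292, plus strand): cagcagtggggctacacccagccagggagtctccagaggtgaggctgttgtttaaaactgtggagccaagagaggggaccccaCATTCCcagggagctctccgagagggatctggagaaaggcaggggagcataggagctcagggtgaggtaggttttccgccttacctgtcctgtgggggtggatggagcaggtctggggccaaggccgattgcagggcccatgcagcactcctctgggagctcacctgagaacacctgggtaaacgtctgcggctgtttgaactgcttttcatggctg
The match begins 46 bases before the start in Mmp3 and 63 bases before it in Mmp10, and 167 bases before it in Lamb3. Of 32851 promoter windows of the same length, 7.808% hold the AP-1 motif and 14.663% the TEAD motif. Of the 4 windows of Pmp22, which had higher values on collagen IV, 1 held the TEAD motif. The other window of Lamb3 and those of Il18rap, Itga2, Efnb1, Serpine2, Tnc and Spp1 held neither. A match is only a description of these letters.

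The values are normalised read counts, in reads per M, where M (mega) refers to a library size that the authors scaled. Depth was 18.95 to 40.01 M assigned reads in 7 of the 8 libraries. Replicate 5 on collagen IV was sequenced to 239.13 M. The upper limit behind a count of 0, taken as 3 reads, lay between 0.0124 and 0.158 per M, and such limits cover counting error only. The amount of T cell RNA differed far more between experiments than between substrates. The summed level of 25 T cell identity genes was 64.5, 47.8, 4866.6 and 46.0 per M on collagen IV in experiments 2, 3, 4 and 5, against 331.6, 71.6, 1691.0 and 41.9 per M on uncoated plastic in experiments 1, 2, 4 and 5. In 4T1 alone the same genes summed to 16.2 to 19.9 per M on both substrates, and none of the 25 was at 0 in any co-culture. In experiment 4 the collagen IV well thus held the most T cell RNA, and in experiments 2 and 5 both wells held little. The carcinoma side was present throughout. Its 21 epithelial genes summed to 4308, 3671, 1979 and 2985 per M on collagen IV, against 4255, 4070, 2773 and 3402 per M on uncoated plastic, in the same order of experiments.

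**Figure D1:**
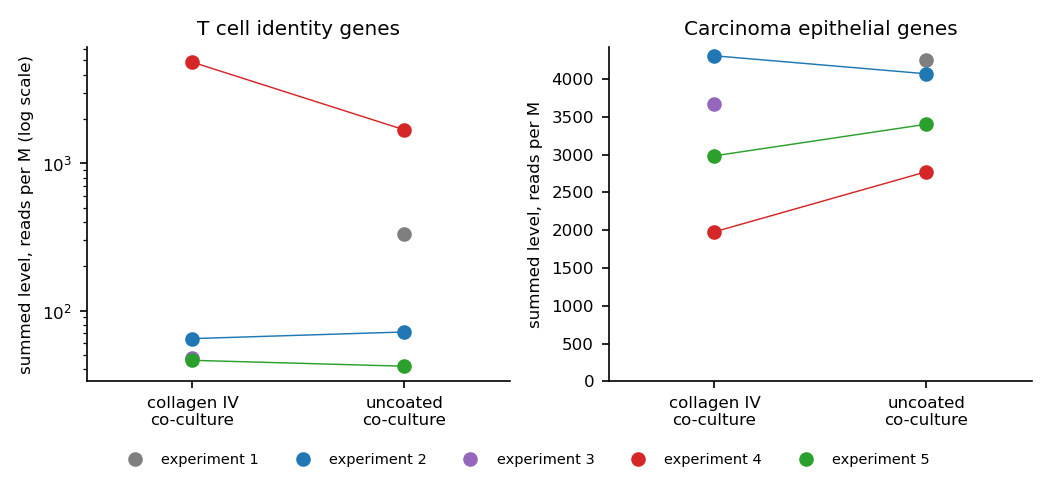
Summed level of T cell identity genes (left, log scale) and of carcinoma epithelial genes (right) in reads per M, with 1 point per co-culture library, coloured by experiment, and lines joining libraries of the same experiment. T cell genes reach 4866.6 per M on collagen IV and 1691.0 per M on uncoated plastic in experiment 4, and lie at 331.6 per M or less in all other libraries.

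Genes of laminin 332 were among the few that passed the test in co-culture. Of 14701 genes tested, 3 passed an adjusted p under 0.05 and all 3 fell on collagen IV (0.0204% of genes lower, 0 higher), by limma on log2(value + 1) with the experiment as a block. They were Lama3, Lamb3 and Il18rap, the accessory chain of the interleukin 18 receptor. At an unadjusted p under 0.05 there were 995 higher genes (6.77%) and 913 lower ones (6.21%), so higher and lower genes were about equally frequent below that level. The count of 3 rests on single libraries. It was 0 without collagen IV co-culture replicate 5, without any 1 of the 4 uncoated co-cultures, without experiment 4, without experiment 5 and by edgeR (2245 genes unadjusted), and 218 without collagen IV co-culture replicate 2.

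Lama3, on chromosome 18, encodes the alpha 3 chain. It had 23.8, 18.5, 7.90 and 9.57 per M on collagen IV in experiments 2, 3, 4 and 5, against 32.8, 39.998, 20.1 and 16.6 per M on uncoated plastic in experiments 1, 2, 4 and 5. The groups overlap across experiments, since both substrates were lower in experiments 4 and 5, but within each of the 3 shared experiments the collagen IV well had the lower value. Lama3 averaged 14.9 ± 7.52 per M on collagen IV and 27.4 ± 10.9 per M on uncoated plastic (SD, n = 4 each). The log2 difference within experiments was −0.91 ± 0.12 (SE, limma adjusted p = 0.0395), with −0.72, −1.24 and −0.73 in experiments 2, 4 and 5.

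Lamb3 (GRCm38 chr1:193207699-193343878) encodes the beta 3 chain. Its values were 159.3, 99.2, 56.5 and 57.3 per M on collagen IV and 163.5, 194.9, 91.2 and 82.6 per M on uncoated plastic, in the same order. Here too the ranges overlap and every shared experiment has the lower value on collagen IV. The log2 difference of Lamb3 was −0.50 ± 0.07 (SE, limma adjusted p = 0.0395), and its pairs gave −0.29, −0.68 and −0.52. Without experiment 4, Lama3 was at −0.74 (adjusted p = 0.0892) and Lamb3 at −0.41 (0.377) by limma. With all co-cultures, experiment 4 included, edgeR on the recovered reads gave an adjusted p of 0.0508 for Lama3 and Lamb3.

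Il18rap (chr1:40515362-40551705) encodes a receptor chain best known from T cells and natural killer cells. It had 23.4, 16.9, 17.97 and 13.4 per M on collagen IV, against 23.8, 38.5, 29.6 and 20.9 per M on uncoated plastic. The log2 difference was −0.71 ± 0.10 (SE, limma adjusted p = 0.0395), with −0.70, −0.69 and −0.61 in the 3 pairs. Without experiment 4 it was −0.71 (0.0892). The level did not follow the T cell genes: the collagen IV well of experiment 4, with 4866.6 per M of T cell identity genes, had 17.97 per M of Il18rap. Wells of 4T1 without T cells held 28.2, 22.3, 24.7 and 14.5 per M on collagen IV (experiments 2 to 5), against 26.7, 36.5, 28.6, 29.1 and 20.7 per M on uncoated plastic (experiments 1 to 5). Il18rap thus had reads in all 9 of these wells, and in 4T1 alone its difference was −0.40 ± 0.10 (limma adjusted p = 0.0509).

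**Figure D2:**
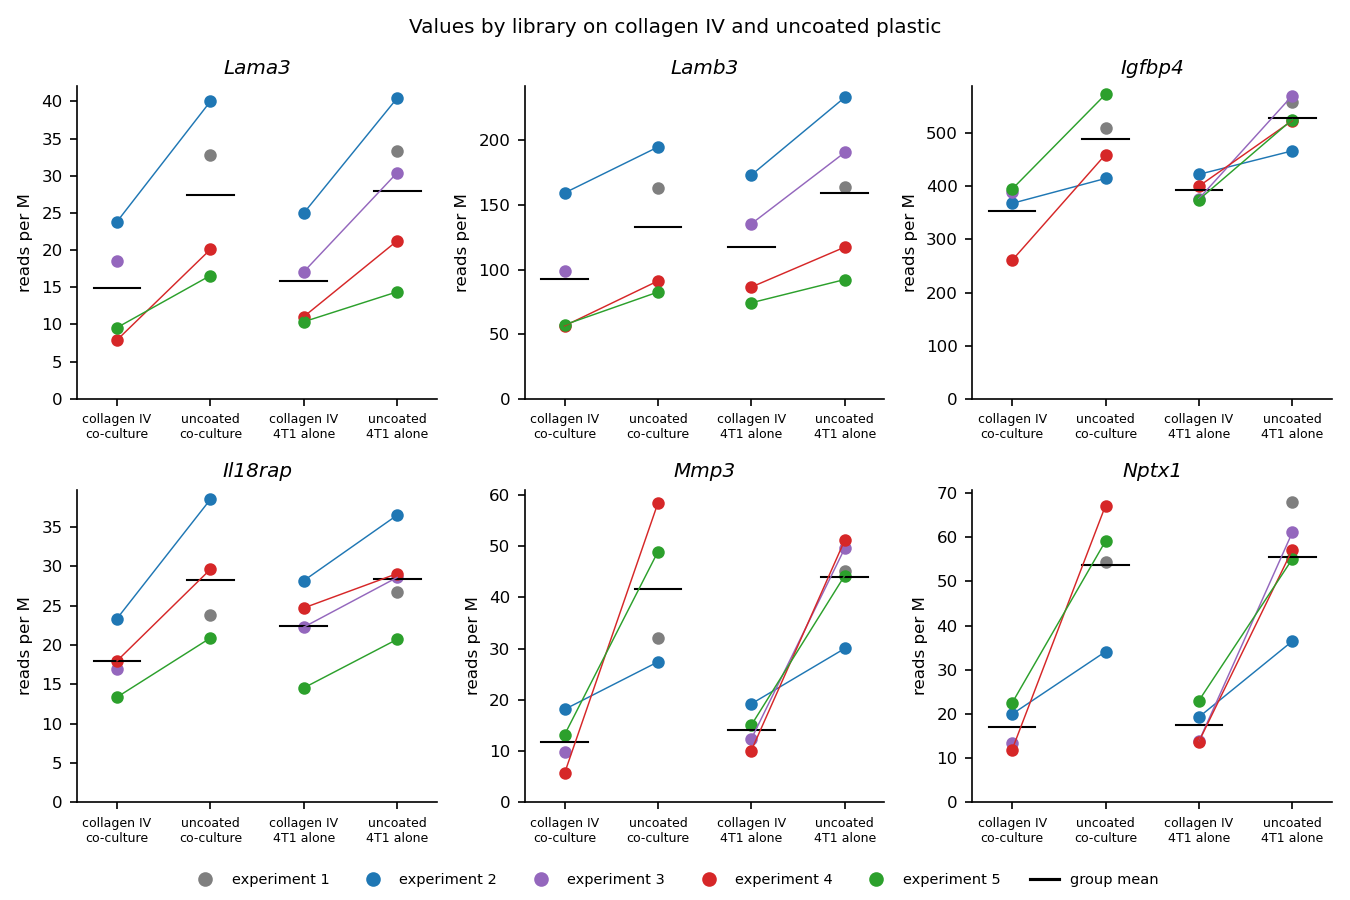
Normalised level (reads per M) of 6 genes in each library on collagen IV and on uncoated plastic, in co-culture (left pair of columns) and in 4T1 alone (right pair). Points are libraries, coloured by experiment, lines join libraries of the same experiment and bars are group means. Every line runs higher on uncoated plastic, and in uncoated co-cultures Lama3 ranges from 16.6 to 39.998 per M over the experiments.

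Of 16 tested members of the basement membrane list, Lama3 and Lamb3 fell and 14 did not pass. The median log2 difference of the list was −0.17, against 0.02 over all genes tested, and its medians in experiments 2, 4 and 5 were 0.09, −0.44 and −0.16. The carcinoma epithelial list had nearly the same medians, −0.18 in all and 0.09, −0.46 and −0.14 in these experiments, and the part of carcinoma cell content in the shift of the basement membrane list was not tested. The chains of other laminins had smaller differences. Lama5 was at −0.21 ± 0.09 on the log2 scale and Lamb1 at −0.25 ± 0.08, and Lamc1, the gamma chain of most other laminins, was at −0.16 ± 0.08. In experiment 2 the pair of Lama5 gave 0.10 and that of Lamc1 0.07. Among the collagen IV chains that the cells themselves transcribe, Col4a1 and Col4a2 moved little. Col4a1 was at −0.12 ± 0.07 and Col4a2 at −0.11 ± 0.07 on the log2 scale, and neither passed (limma adjusted p = 0.424 and 0.441). Col4a5 and Col4a6 were also tested and did not pass, and their differences are not reported here. Col18a1, which encodes a basement membrane collagen, had 129.6, 129.5, 72.2 and 116.9 per M on collagen IV, against 156.2, 137.7, 133.0 and 165.2 per M on uncoated plastic. Those groups do not overlap, yet its difference of −0.47 ± 0.11 did not pass (adjusted p = 0.210). Over all genes, 83 (0.565%) had every collagen IV library below every uncoated one and 40 (0.272%) had every one above.

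Among matrix proteases, Mmp3 had the widest log2 difference of the 14701 genes tested but did not pass. Of 26 tested members of the matrix remodelling list, 0 passed by limma in either direction, and 10 were lower and 0 higher at an unadjusted p under 0.05, against 6.21% and 6.77% of all genes. The list had a median of −0.16 on the log2 scale, against 0.02 over all genes tested, and 11 of its members were lower in all 3 pairs, a state found in 9.86% of all genes. Its medians in experiments 2, 4 and 5 were −0.05, −0.45 and −0.12. Those of the carcinoma epithelial list were 0.09, −0.46 and −0.14. The part of carcinoma cell content in the shift of the matrix remodelling list was not tested. Mmp3 (chr9:7445822-7455975), or stromelysin 1, had 18.1, 9.80, 5.67 and 13.2 per M on collagen IV, against 32.1, 27.4, 58.4 and 48.9 per M on uncoated plastic. Every collagen IV library lay below every uncoated one. The log2 difference of Mmp3 was −1.84 ± 0.39 (limma adjusted p = 0.178), and it ran from −0.57 in experiment 2 to −3.15 in experiment 4. Without experiment 4 it was −1.21.

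Mmp10 (chr9:7502352-7510240), or stromelysin 2, showed the same order at a lower level. It had 6.496, 4.90, 1.24 and 2.83 per M on collagen IV, against 7.27, 9.59, 9.18 and 9.06 per M on uncoated plastic, with no overlap (log2 difference −1.38 ± 0.33, adjusted p = 0.210). Mmp9, gelatinase B, which cleaves collagen IV, had 321.9, 210.0, 111.4 and 114.1 per M on collagen IV, against 301.5, 392.6, 205.4 and 238.4 per M on uncoated plastic. Its groups overlap through experiments 2 and 3, and the difference was −0.79 ± 0.16 (adjusted p = 0.162). The urokinase Plau was at −0.59 ± 0.15 (adjusted p = 0.229), its receptor Plaur at −0.34 ± 0.08 (0.210), and the protease inhibitor Serpine2 at −0.74 ± 0.15 (0.162). The membrane-bound collagenase Mmp14, at −0.17 ± 0.10, and the inhibitor Timp2, at −0.07 ± 0.08, differed by less.

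Among receptors for collagen, 9 of 12 genes in the table reached the filter and 0 passed by limma, with 6 lower at an unadjusted p under 0.05, against 6.21% of all genes. Their median log2 difference was −0.22, against 0.02 over all genes, with −0.09, −0.52 and −0.15 in experiments 2, 4 and 5. The carcinoma epithelial list had a median of −0.18, with 0.09, −0.46 and −0.14 in these experiments. Of its 19 tested genes, 6 were lower at an unadjusted p under 0.05 by limma. The part of carcinoma cell content in the shift of the receptor genes was not tested. Itga2 (chr13:114833081-114932100), the alpha chain of the main epithelial collagen integrin, had 175.2, 156.9, 73.8 and 114.9 per M on collagen IV, against 198.7, 214.7, 156.2 and 162.6 per M on uncoated plastic. The libraries of the first group reach into the range of the second only through experiments 2 and 3. The difference of Itga2 was −0.61 ± 0.12 (adjusted p = 0.178), and −0.39 without experiment 4. That of Itga1 was −0.61 ± 0.20 (0.325), at only 1.35 to 2.52 per M on collagen IV and 1.83 to 4.31 per M on uncoated plastic. Their shared partner Itgb1 was at −0.22 ± 0.09, with 0.01 in experiment 5. The discoidin domain receptors, which are collagen-binding kinases, showed no common direction. Ddr1 was at 0.11 ± 0.10 and Ddr2 at −0.08 ± 0.08, and both change sign without experiment 4, to −0.03 and 0.07. The hyaluronan receptor Cd44 was at −0.37 ± 0.12, the syndecans Sdc1 and Sdc4 were at −0.26 ± 0.06 and −0.22 ± 0.09, and Itga10 was at 0.28 ± 0.17. Of the laminin 332 integrins, Itgb4 was at −0.49 ± 0.14 with 0.01 in experiment 2, Itga6 at −0.16 ± 0.06 and Itga3 at −0.19 ± 0.08, all without passing.

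Other genes with low unadjusted p had a similar form. Nptx1 (chr11:119538719-119547753) encodes neuronal pentraxin 1, a secreted protein known from synapses. It had 20.0, 13.5, 11.9 and 22.5 per M on collagen IV, against 54.4, 34.1, 67.2 and 59.1 per M on uncoated plastic, so the groups do not overlap. The log2 difference of Nptx1 was −1.45 ± 0.26 (limma adjusted p = 0.113), and −1.01 without experiment 4. Efnb1 (chrX:99136130-99148991), the membrane-bound ligand ephrin B1, had 62.9, 56.1, 24.2 and 24.6 per M on collagen IV, against 65.7, 77.5, 36.2 and 38.2 per M on uncoated plastic (−0.48 ± 0.08, adjusted p = 0.0906). The groups of Efnb1 overlap, with both substrates lower in experiments 4 and 5.

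Igfbp4, which binds insulin-like growth factors, had 368.0, 388.6, 260.7 and 394.7 per M on collagen IV, against 509.0, 414.9, 459.9 and 573.3 per M on uncoated plastic, without overlap (−0.50 ± 0.09, adjusted p = 0.113). Antxr2, an anthrax toxin receptor that binds collagen IV and laminin, did not overlap either, with 44.8 to 67.3 per M on collagen IV and 73.7 to 83.3 per M on uncoated plastic (−0.42 ± 0.08, 0.128). The scaffold protein Akap12 was at −0.42 ± 0.08 (0.113) and the galactosyltransferase B4galt5 at −0.32 ± 0.06 (0.128). Spp1, or osteopontin, differed by −1.20 ± 0.38 without passing (0.304), and its pairs ran from −0.19 in experiment 2 to −2.21 in experiment 4. The epidermal growth factor ligands Tgfa, Areg and Hbegf, picked after their values were seen, were at −0.60 ± 0.12, −0.82 ± 0.18 and −0.43 ± 0.10, and none passed.

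In the fit of the 18 co-cultures with the experiment as a block, 0 genes rose on collagen IV at an adjusted p under 0.05 by limma or by edgeR, with 995 higher genes by limma at an unadjusted p under 0.05. Other fits did call higher genes, among them 1 without experiment 2, 9 without collagen IV co-culture replicate 2, 1 without replicate 4, 1 with epithelial scaling, 1 with the T cell score as covariate, 3 with a block shared by both arms, and, on all 40 libraries with a block within each arm, 87 by limma and 333 by edgeR. The smallest unadjusted p among higher genes was that of Pmp22 (chr11:63128982-63159547), a membrane protein best known from myelin. It had 21.2, 13.3, 20.8 and 25.6 per M on collagen IV, against 7.25, 14.1, 16.1 and 15.7 per M on uncoated plastic (0.53 ± 0.09, limma adjusted p = 0.102). Each shared experiment was higher on collagen IV, and the groups overlap through experiment 3. Trib3, a pseudokinase of the stress response, had 15.3 to 16.7 per M on collagen IV and 11.5 to 14.9 per M on uncoated plastic, without overlap (0.36 ± 0.08, adjusted p = 0.197). The lectin Lgals9 was at 0.59 ± 0.13, the caveolar protein Cavin2 at 0.49 ± 0.11, the cyclin Ccnd2 at 0.27 ± 0.07, the adaptor Myd88 at 0.31 ± 0.08 and the transmembrane protein Crim1 at 0.22 ± 0.06. Fig4, Msrb1 and Gm15793 completed the 10 higher genes of this kind, with 0.24, 0.22 and 0.29. Their adjusted p ranged up to 0.250.

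The T cell genes differed between substrates in experiment 4 and not in one direction elsewhere. Of 25 tested T cell identity genes, 0 passed by limma, 4 were higher and 0 lower at an unadjusted p under 0.05. Their median pair differences were −0.16, 1.58 and 0.09 in experiments 2, 4 and 5. The co-receptor Cd8a had 1.20, 0.685, 122.2 and 0.665 per M on collagen IV, against 7.80, 1.46, 40.04 and 0.589 per M on uncoated plastic. Cd4 had 1.539, 1.21, 155.8 and 1.03 per M on collagen IV, against 8.46, 1.28, 51.9 and 0.810 per M on uncoated plastic. The collagen IV well of experiment 4 is the highest for both genes and its uncoated well the second, and both were below 2 per M in experiments 2, 3 and 5. Naive and homing genes (median pair differences −0.05, 1.46 and 0.10), activation genes (0.01, 1.29 and 0.03), cytotoxic genes (0.07, 1.19 and −0.01) and checkpoint genes (0.0023, 1.33 and −0.0041) had the same form, with 0 passing in each list. Icos, a costimulatory receptor of activated T cells, had 28.4 per M in the collagen IV well of experiment 4, against 10.2 per M in its uncoated well, and at most 1.60 per M in the other 6 libraries.

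The summed levels of both interferon lists were also highest in the collagen IV well of experiment 4. Of 19 tested interferon gamma response genes 0 passed, and their median pair differences were −0.01, 2.53 and 0.11 in experiments 2, 4 and 5. Iigp1, a GTPase that interferon gamma induces, had 0.183, 0, 59.4 and 0.723 per M on collagen IV, against 0.786, 0.187, 4.47 and 0.442 per M on uncoated plastic. Cd274, which encodes the checkpoint ligand PD-L1, had 48.1 per M in experiment 4 on collagen IV, against 7.49 per M on uncoated plastic, and 1.63 to 2.87 per M in the other 6 libraries. In each of these genes 1 library stands far above the rest and the groups otherwise overlap. Interferon genes were higher on collagen IV in 4T1 alone as well. Without T cells, 15 of 22 type I interferon genes and 8 of 19 interferon gamma response genes were higher at an unadjusted p under 0.05, against 6.52% of all genes, and their median log2 differences were 0.28 and 0.17. Of the type I list, Ddx58 and Ifih1, sensors of viral RNA, rose by 0.25 and 0.34 in 4T1 alone (limma adjusted p = 0.00641 and 0.0225), and Ifit2, an interferon-induced antiviral protein, by 0.31 (0.0341). Of the interferon gamma list, the chemokine Cxcl10 rose by 0.48 (adjusted p = 0.0225) and the transcription factor Irf8 fell by 0.57 (0.0479). None of these 5 genes passed in co-culture.

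Of 22 tested type I interferon genes and 18 genes of antigen presentation by class I, 0 passed, and 10 of each were higher at an unadjusted p under 0.05, against 6.77% of all genes. Their median pair differences were 0.12, 1.05 and 0.03, and 0.08, 0.93 and −0.01. B2m, the light chain of class I molecules, had 286.5, 247.2, 823.0 and 305.0 per M on collagen IV, against 286.2, 288.5, 456.8 and 289.6 per M on uncoated plastic. As the T cell identity genes differ in the same well by 4866.6 against 1691.0 per M, and the mixture holds both cell types, the part of T cell content in these differences was not tested. Markers of other spleen cells moved with the T cells. The 12 B cell genes in the table summed to 148.7 per M in the collagen IV well of experiment 4, against 50.9 per M in its uncoated well, and to 3.65 to 10.8 per M in the other 6 libraries. Erythroid and platelet genes summed to 51.7 and 25.2 per M in those wells and to at most 1.99 per M elsewhere. The 6 macrophage genes summed to 10.1 to 13.6 per M on collagen IV and 11.6 to 14.7 per M on uncoated plastic, close to the levels in 4T1 alone (8.51 to 14.7 per M).

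**Figure D3:**
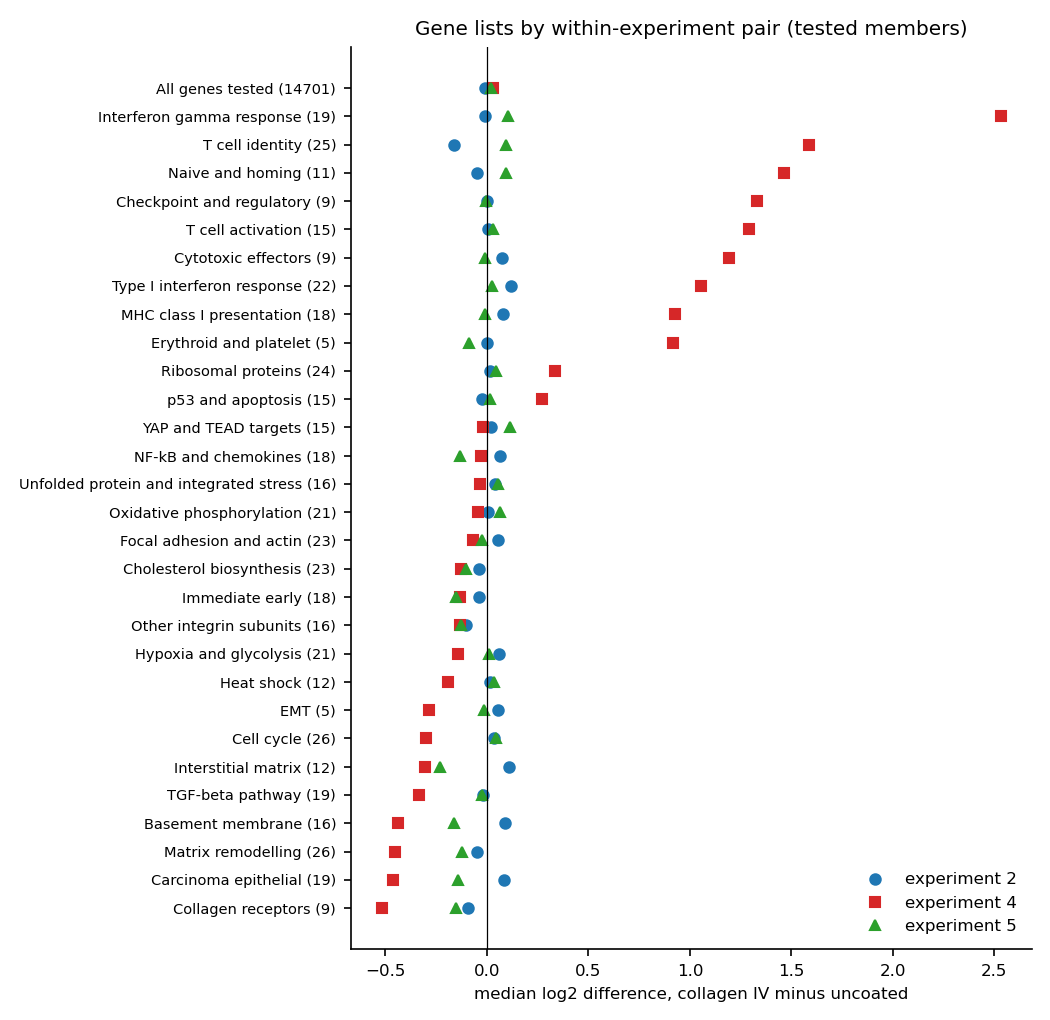
Median log2 difference of the tested members of each gene list with at least 5 of them, collagen IV minus uncoated co-culture, within experiments 2, 4 and 5 (1 point per experiment). Interferon and T cell lists lie far to the right in experiment 4 and near 0 in experiments 2 and 5, while the basement membrane list lies at 0.09, −0.44 and −0.16.

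Several carcinoma programmes showed no common shift in co-culture. The focal adhesion and actin list (23 tested genes) had a median of 0.01, YAP and TEAD targets (15 genes) of −0.01, hypoxia and glycolysis (21 genes) of −0.01, the unfolded protein list (16 genes) of −0.0017 and oxidative phosphorylation (21 genes) of 0.01, all without a gene passing. In 4T1 alone, the YAP and TEAD targets had a median of 0.14, and 2 passed by limma, both higher. At an unadjusted p under 0.05, 7 of the 15 were higher there and 2 lower, against 958 and 1189 of all 14701 genes. Carcinoma epithelial genes had a median of −0.18, with 0.09, −0.46 and −0.14 in experiments 2, 4 and 5. Epcam, an epithelial adhesion protein, had 108.6, 94.1, 46.4 and 98.7 per M on collagen IV, against 146.1, 120.0, 90.2 and 128.8 per M on uncoated plastic (−0.49 ± 0.14, adjusted p = 0.253). When each library was scaled to the epithelial list, the median over all genes became 0.18, and Lama3 (−0.76, adjusted p = 0.0494) and Pmp22 (0.70, 0.0494) were among the genes that passed, while Lamb3 (−0.33, 0.229) did not. With the T cell identity score as a covariate, Lama3 (−0.78, adjusted p = 0.0160), Lamb3 (−0.45, 0.0382), Il18rap (−0.65, 0.0382) and Pmp22 (0.61, 0.0160) were among the genes that passed.

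The same substrates were compared in 4T1 cells without T cells, in other wells of the same experiments (4 libraries on collagen IV and 5 on uncoated plastic). There 210 genes passed by limma with the experiment as a block (1.43% of genes), 53 higher (0.361%) and 157 lower (1.07%), and Lama3 and Lamb3 were among those that fell. Lama3 had 24.99, 17.1, 11.05 and 10.4 per M on collagen IV in experiments 2 to 5, against 33.4, 40.4, 30.4, 21.2 and 14.4 per M on uncoated plastic in experiments 1 to 5, with a log2 difference of −0.71 ± 0.09 (adjusted p = 0.00202). Lamb3 fell by 0.40 on the log2 scale (adjusted p = 0.00641). Mmp3 had 19.2, 12.4, 10.1 and 15.1 per M on collagen IV, against 45.2, 30.0, 49.6, 51.2 and 44.3 per M on uncoated plastic, without overlap, and fell by 1.61 (0.00641). Mmp10 fell by 0.94 (adjusted p = 0.0152), Serpine2 by 0.81 (0.00202), Mmp9 by 0.51 (0.0470), Col18a1 by 0.35 (0.0152), Itga2 by 0.26 (0.0323) and Sdc1 by 0.18 (0.0157). Nptx1 fell by 1.56 (0.00115), and Pmp22 rose by 0.66 (0.00139). The 4T1 alone count depends on the libraries, with 10 genes without experiment 4, 1 without the block, and 44 to 385 on leaving out 1 library, the lowest without collagen IV replicate 3 and the highest without replicate 2.

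Of the 157 genes that fell in 4T1 alone, 136 (86.6%) were also lower in co-culture, against 43.9% of all genes tested. In 3 of 3 co-culture pairs 91 of them (58%) were lower, against 9.86% of all genes. In experiments 2 and 5, which held little T cell RNA, 107 (68.2%) were lower in both pairs, against 20.7% of all genes. At an unadjusted p under 0.05 in co-culture 100 of the 157 were lower and 0 higher, and 2 passed. Their median log2 difference was −0.28 in co-culture and −0.29 in 4T1 alone. By pair, the medians of these 157 genes were −0.07, −0.49 and −0.31 in experiments 2, 4 and 5. Without experiment 4, 75 of the 157 were lower at an unadjusted p under 0.05 by limma. Of the 53 genes that rose in 4T1 alone, 46 (86.8%) were higher in co-culture, against 56.1% of all genes, and 22 (41.5%) in 3 of 3 pairs, against 13.5% of all genes. At an unadjusted p under 0.05 in co-culture 16 of the 53 (30.2%) were higher and 0 lower, and 0 passed. Their medians were 0.15 in co-culture and 0.32 in 4T1 alone. By pair, the medians of these 53 genes were 0.16, 0.03 and 0.27 in experiments 2, 4 and 5. The wells with and without T cells share their experiments.

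**Figure D4:**
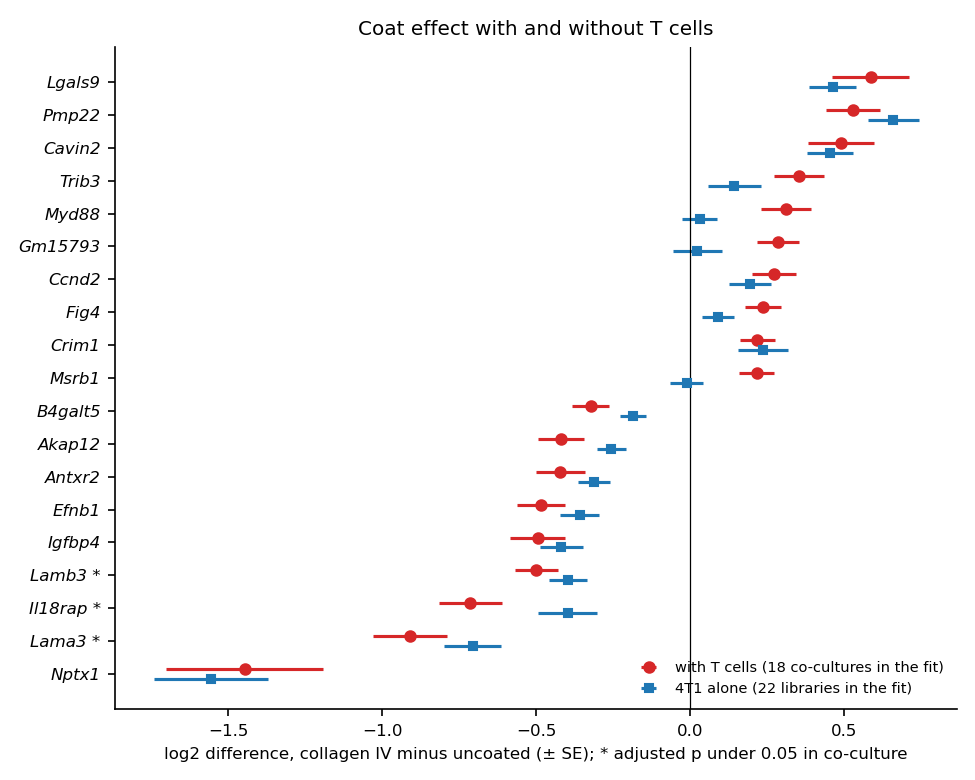
Log2 difference, collagen IV minus uncoated (± SE, limma with the experiment as a block), with T cells (red circles) and in 4T1 alone (blue squares), for 9 lower and 10 higher genes named by their p in co-culture. Lama3 lies at −0.91 in co-culture and −0.71 in 4T1 alone, Nptx1 at −1.45 and −1.56, and Pmp22 at 0.53 and 0.66, and asterisks mark an adjusted p under 0.05 in co-culture.

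Whether the coat acted differently with T cells present was tested as the difference between both effects over all 40 libraries. By limma 0 genes passed, with 2054 (14%) at an unadjusted p under 0.05, and edgeR gave 0, with 1834 unadjusted. Without collagen IV co-culture replicate 5, the deepest library, 1495 genes passed by limma, and without any other of the 8 co-cultures 0 did, so the count of 0 rests on that library. The unadjusted p of the difference was 0.190 for Lama3, 0.290 for Lamb3, 0.0339 for Il18rap, 0.619 for Mmp3 and 0.726 for Nptx1, with an adjusted p of at least 0.343 for every gene.

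Against the mean of the other 3 coats in co-culture, a contrast added after the data were seen, 60 genes passed by limma (0.408%), 4 higher (0.0272%) and 56 lower (0.381%). Lama3 fell by 0.66 ± 0.10 (adjusted p = 0.0190), Lamb3 by 0.42 ± 0.06 (0.0159), Nptx1 by 1.35 ± 0.21 (0.0191), Efnb1 by 0.43 ± 0.06 (0.0189), Igfbp4 by 0.54 ± 0.07 (0.0159) and Antxr2 by 0.39 ± 0.07 (0.0260) on the log2 scale, and Pmp22 rose by 0.53 ± 0.07 (0.0159). Itga2 (−0.44 ± 0.10, adjusted p = 0.0823) and Mmp3 (−1.35 ± 0.33, 0.0859) did not pass. Il18rap differed between collagen IV and the other coats by −0.15 ± 0.09 (0.376). On collagen I, compared with the same uncoated libraries and with 14 genes passing (0.0952%), Il18rap fell by 0.77 ± 0.10 (adjusted p = 0.00828), and it was at −0.47 ± 0.09 on fibronectin and −0.47 ± 0.10 on vitronectin without passing. The count of 60 became 0 without collagen IV co-culture replicate 5, 820 without replicate 2, 37 without replicate 4 and 16 without experiment 4.

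**Figure D5:**
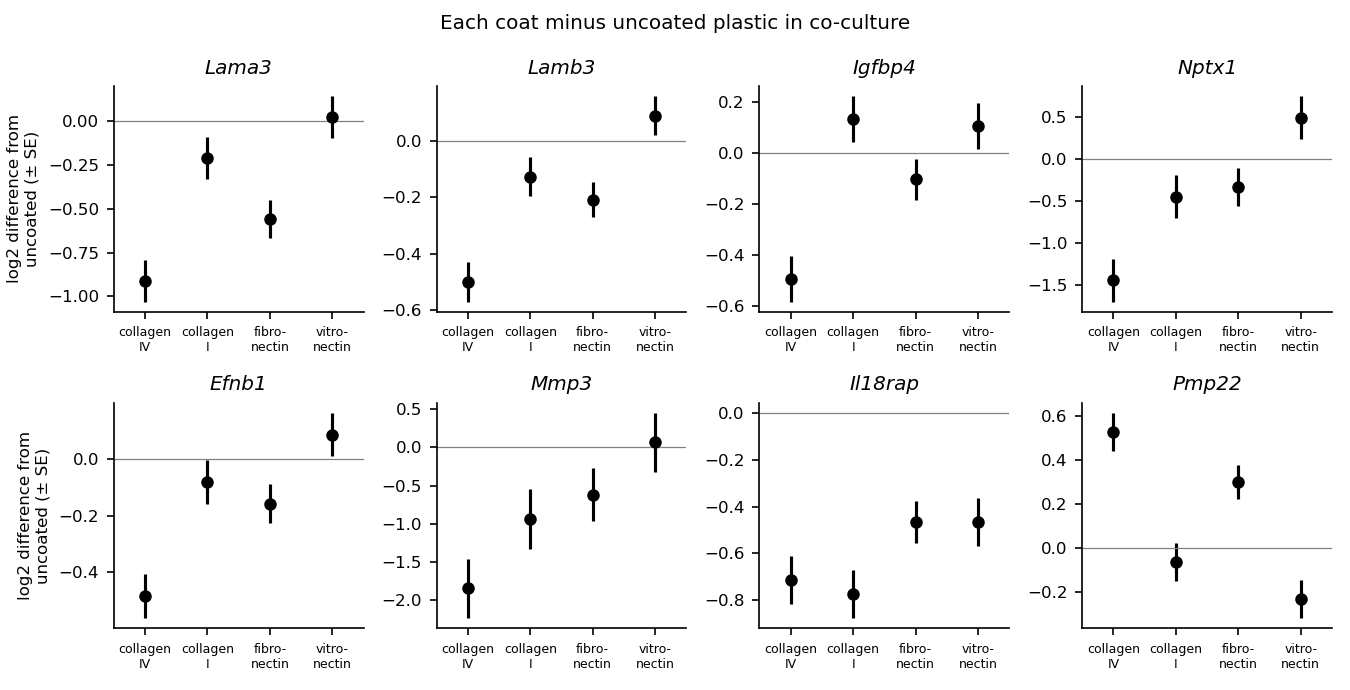
Log2 difference from uncoated plastic in co-culture (± SE, limma with the experiment as a block) on collagen IV, collagen I, fibronectin and vitronectin, which share the uncoated libraries. Lama3 lies at −0.91 on collagen IV, −0.21 on collagen I, −0.56 on fibronectin and 0.02 on vitronectin, while Il18rap lies at −0.71 on collagen IV and −0.77 on collagen I.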

How the data were processed

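RNA of 4T1 cells alone or with T cells was sequenced as single ends of 75 bases after library preparation with a TruSeq kit, per the labels' protocols. Per the submitters' processing notes, mm10 was the build, and the tools were STAR 2.6, edgeR 3.31.7 and featureCounts, for which no version, option or annotation is given. The authors deposited 1 table of an expression signal per gene and library: reads per gene over a library size that had been scaled. With the step of 1 read as the unit, 100% of the values came out whole (within 0.01), which gives 18.95 to 239.13 M reads per library over the series. The table had 21349 lines. The duplicate line of Cd3d was dropped, as was Ldha, which has a cell without a number. A further 19 symbols read as dates, and their lines were kept.

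Of 21347 genes, 14701 reached 1 per M in at least 3 of the 40 libraries and were tested. The test was limma 3.58.1 on log2(value + 1) (trend, two-sided, Benjamini-Hochberg over all genes tested, threshold 0.05) in R 4.3.3. The fit used the 18 co-cultures, with the substrate and the experiment as a block (9 residual degrees of freedom). Adding 1 understates the change of low genes. Collagen IV co-culture replicate 3 is the only co-culture of its experiment, so the block leaves it no weight in the difference. The number pairs the libraries: the labels give it as the experiment, and the deviations of paired libraries from their group means correlated at 0.797, 0.938 and 0.867 in experiments 2, 4 and 5. The 4T1 alone contrast used 22 libraries, and the test of the difference between both effects all 40, with a block in each arm. edgeR 4.0.16 (quasi-likelihood) on the recovered reads was an alternative. On simulated data, 100 genes were changed 1.5-fold and 100 were changed 2-fold. The co-culture fit recovered 85% and 98% of them, with 8 false calls among the unchanged genes of the 14701. The changed genes were drawn from those with a mean of at least 10 per M over the co-cultures. The shares therefore do not cover genes below that level. In the measured data Mmp3 (log2 difference −1.84) and Nptx1 (−1.45) did not pass. Their pairs ran from −0.57 to −3.15 and from −0.74 to −2.40. The simulated shares therefore do not give the recovery rate for measured differences that vary between experiments. No libraries of a group were copies (chi-square per degree of freedom of at least 20.0 in 12 pairs).

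Named genes were those passing, filled to 10 in each direction with the smallest unadjusted p among genes with 1 sign in 3 of 3 pairs and a mean of 10 per M, the member of each list with the largest difference, and the collagen receptors. Some genes are not reported here. Genes outside this rule were picked after their values were seen, among them Mmp9, Mmp10, Col18a1, Cd274, Cd4, Cd8a and B2m. The comparison and the lists were chosen with earlier results of these data known. Gene positions are from GENCODE (GRCm38), the assembly that mm10 denotes. The sources used here do not say whether counting used strand, so reads of overlapping or antisense genes cannot be told apart.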

Additional observations from a re-analysis of the deposited data

Results flagged for a closer look

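For 26 combinations of a named gene and a group, 1 of the 4 libraries stood apart by Dixon's criterion, the gap to the nearest library divided by the range of log2(value + 1). For a single gene not picked by its values, chance gives this in about 1 of 20 groups. Many of the genes here were named for a large difference and share their libraries, so that rate does not apply to the 26. Most concern the collagen IV well of experiment 4, which held 4866.6 per M of T cell identity genes, and what that content adds to each gene was not tested.

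That well was high for the lymphocyte genes Cd27 (gap over range 0.975), Ighm (0.840), Klrk1 (0.969), Itgb7 (0.926), Srgn (0.948), Icos (0.955) and Ccr7 (0.909), and for Pecam1 (0.967), Hbb-bs (1), Zeb1 (0.925), Pdk1 (0.984) and Itga10 (0.831). It was also high for the interferon and antigen presentation genes Iigp1 (0.867), Irf9 (0.958), Tap1 (0.877) and H2-Ob (0.941).

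It was low for 6 genes measured in the carcinoma cells: Igfbp4 (0.831), Antxr2 (0.841), Epcam (0.831), Itgb1 (0.859), Cd44 (0.830) and Sdc4 (0.860).

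Among uncoated co-cultures, replicate 4 was high for Klrk1 (0.918) and Hbb-bs (0.927), replicate 1 was low for Pmp22 (0.833), and replicate 2 was high for Fosb (0.956), an immediate early gene. Fosb had 54.9 per M on collagen IV and 100.1 per M on uncoated plastic in experiment 2, against at most 8.69 per M in the other 6 libraries.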

How the results depend on the processing

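The count of 3 genes in co-culture was 3 with a pseudocount of 0.5 or a filter of 5 per M, with the same genes. It was 2 without the replicate block on 40 libraries, and neither of these is among the 3. It became 0 without the replicate block on the 18 co-cultures, with the replicate block on the 6 paired libraries, by edgeR with the block (2245 unadjusted), with a pseudocount of 5, without a filter, with quantile normalization, without experiment 4 and without experiment 5. It became 5 with the T cell score as covariate, 51 without experiment 2, 42 with a replicate block shared by both arms, and, added after seeing the data, 343 by limma (87 higher and 256 lower) and 609 by edgeR (333 higher and 276 lower) with a replicate block within each arm on 40 libraries. Scaling to epithelial genes gave 3, of which 1 was higher and 1 is shared with the reported 3. Leaving out 1 library gave 0 to 218, the highest without collagen IV co-culture replicate 2. It gave 0 without collagen IV co-culture replicate 5 and without any 1 uncoated co-culture. The cause of these moves was not tested.

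The count in 4T1 alone (210) was 260 by edgeR, 1 without the replicate block, 10 without experiment 4, and 44 to 385 on leaving out 1 library: 385, 44, 60 and 68 without collagen IV replicate 2, 3, 4 and 5, and 73, 132 and 121 without uncoated replicate 3, 4 and 5. The count against the other coats (60) was 67 by edgeR, 0 without the replicate block, 16 without experiment 4, and 0 to 820 on leaving out 1 collagen IV library. The count of the difference between both effects was 0 in every alternative run except on leaving out 1 library, where it was 0 to 1495.

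Over 61 named genes and 25 alternatives, 1518 values were obtained: 1337 kept direction and call, 113 passed only under the alternative, 46 passed only in the reported fit and 22 changed sign. The 46 all concern Lama3, Lamb3 and Il18rap, which kept a lower value on collagen IV in all 25 alternatives. No gene that changed sign had passed. The sign changed without the replicate block for Ccr7 (−0.17), Ighm (−0.20), Itgb7 (−0.0929) and Ddr2 (0.0147), with the shared replicate block for Ighm (−0.00767), with epithelial scaling for Ddr2 (0.0958), and with the T cell covariate for Ddr1 (−0.0168), Ddr2 (0.0456), Hbb-bs (−0.106) and Klrk1 (−0.0286). It changed without experiment 4 for Ddr1 (−0.0261), Ddr2 (0.0695) and Hbb-bs (−0.0340). On leaving out 1 library it changed without collagen IV co-culture replicate 4, and the values ran from −0.0468 to 0.245 for Ddr1, −0.185 to 0.0738 for Ddr2, −0.223 to 0.627 for Hbb-bs, −0.0156 to 0.985 for Itgb7 and −0.0901 to 0.667 for Klrk1. Depth limits genes near 0.158 per M, the level of 3 reads in the shallowest library.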
